A study of Mus musculus with 4 samples.

Results

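The 35 genes described here encode proteins of DNA replication and S phase: the MCM helicase, the factors that load and start it, the replicative polymerases, the sliding clamp and its loader, the enzymes that make deoxynucleotides, and regulators of S phase entry and of newly copied chromatin. They were listed by symbol, each symbol matched 1 gene ID, and all 35 of the 53801 genes listed had enough counts to be tested. RNA was sequenced from osteoclast precursor cells, the myeloid cells from which osteoclasts, the giant cells that resorb bone, are formed by fusion, of wild-type C57BL/6 mice. Cells from 2 mice, labelled precursor cells 1 and precursor cells 2, were each given 200 ng/ml DKK1 or phosphate-buffered saline (PBS) for 3 h, so that each of 4 libraries is 1 preparation under 1 treatment. The protein DKK1 (Dickkopf-1) blocks Wnt signalling from outside the cell by binding the Lrp5 and Lrp6 co-receptors. The labels give no age, no sorting step and no culture before treatment, so each set of precursor cells is called a preparation.

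Before S phase, the origin recognition complex with Cdc6 and Cdt1 loads the ring of Mcm2 to Mcm7 onto DNA in an inactive form, a step called licensing. Cyclin E with its kinase and the kinase Cdc7 then turn the ring into a running helicase together with Cdc45 and the GINS complex. Polymerases alpha, delta and epsilon copy the strands, and the clamp Pcna holds delta and epsilon in place. Many of these genes are transcribed together at the border of G1 and S by E2F factors. Wnt signalling can act on the cell cycle through cyclin D genes and Myc in many tissues, and osteoclast precursors divide before they fuse.

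No member passed the test for DKK1 against PBS (0.0515% of all genes did), and the median log2 change of the members was -0.002. In precursor cells 2, 27 of the 35 were lower than in precursor cells 1 (15.9% of all genes were) and 0 were higher (17.9%), with a median log2 difference of -0.877. Together the members held 0.205% and 0.207% of all counts in the PBS and DKK1 libraries of precursor cells 1, and 0.108% and 0.106% in those of precursor cells 2. In bulk RNA, fewer cells of a kind and less RNA per cell cannot be told apart.

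The libraries held 41163663 to 53537927 counts, and 17462 genes were tested with edgeR's quasi-likelihood test (two-sided, Benjamini-Hochberg adjusted p under 0.05). Precursor cells 1 were the more deeply sequenced, and levels are given as CPM, counts scaled to library size, here after TMM scaling, which also adjusts for composition. Where 4 levels are given as a pair and then another, they are PBS and DKK1 of precursor cells 1, then PBS and DKK1 of precursor cells 2. The myeloid label was checked on 12 monocyte and macrophage markers, which summed to between 24614 and 32467 CPM per library. The lysozyme gene Lyz2 alone, with 14290 to 24910 CPM, held most of each sum. Osteoclast markers summed to between 1258 and 1504 CPM. The protease gene Mmp9, with 276.0 to 586.1 CPM, was the highest of them in precursor cells 1. Acp5, the acid phosphatase of osteoclasts, had 329.4 to 475.5 CPM and was the highest in precursor cells 2. Tnfrsf11a, the receptor for RANKL, had 197.2 to 203.5. Itgb3 had 251.8 to 331.1 CPM and Nfatc1 40.2 to 50.8. Lower levels were found for Ctsk with 4.11 to 29.1 CPM, Atp6v0d2 with 9.17 to 12.1, Dcstamp with 0.345 to 1.70 and Ocstamp with 0.46 to 1.52. Oscar had 0 counts in both PBS libraries and 4 and 6 with DKK1. Of the 11 osteoclast markers 1, the calcitonin receptor gene Calcr, had 0 counts in every library.

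Promoter sequences are shown for 4 members: Pola1, with the largest difference between the preparations, Mcm5 and Mcm6, which belong to 1 complex but differed by unequal amounts, and Rfc3, with the largest change with DKK1 and no difference between the preparations that passed the test. Each run below is the 250 bases before the RefSeq transcription start (GRCm38.p6), 5′ to 3′ on the gene's strand. Capitals mark matches to an E2F-type motif, spelled TTTCCCGC, TTTGGCGC, TTTCGCGC or TTTGCCGC and searched on both strands, where matches may overlap. The Pola1 run lies at chrX:93632156-93632405 (minus strand), that of Mcm5 at chr8:75109259-75109508 (plus strand), that of Mcm6 at chr1:128359706-128359955 (minus strand) and that of Rfc3 at chr5:151651209-151651458 (minus strand).
Pola1: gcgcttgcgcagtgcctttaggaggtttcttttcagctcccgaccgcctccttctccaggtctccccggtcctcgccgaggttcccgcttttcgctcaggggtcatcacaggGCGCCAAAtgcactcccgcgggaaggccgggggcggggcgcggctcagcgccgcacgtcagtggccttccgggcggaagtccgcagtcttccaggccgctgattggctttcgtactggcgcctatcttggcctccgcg
Mcm5: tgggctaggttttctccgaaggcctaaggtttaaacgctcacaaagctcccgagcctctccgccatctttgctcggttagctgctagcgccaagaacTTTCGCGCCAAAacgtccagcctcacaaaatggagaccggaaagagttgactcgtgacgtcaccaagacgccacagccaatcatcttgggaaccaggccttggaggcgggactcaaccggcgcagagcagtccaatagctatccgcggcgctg
Mcm6: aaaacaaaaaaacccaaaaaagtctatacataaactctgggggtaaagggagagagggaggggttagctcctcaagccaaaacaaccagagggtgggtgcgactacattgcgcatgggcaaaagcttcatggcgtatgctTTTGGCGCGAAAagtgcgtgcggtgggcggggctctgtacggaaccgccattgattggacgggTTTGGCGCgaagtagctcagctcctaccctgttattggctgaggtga
Rfc3: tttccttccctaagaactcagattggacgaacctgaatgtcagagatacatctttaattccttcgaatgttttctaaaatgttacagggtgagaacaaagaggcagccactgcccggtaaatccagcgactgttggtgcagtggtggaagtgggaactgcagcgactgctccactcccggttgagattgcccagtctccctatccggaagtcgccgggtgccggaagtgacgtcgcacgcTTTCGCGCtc

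In Mcm5 the capitals hold a pair of overlapping matches that share the letters GCGC, starting at positions -153 and -149 from the transcription start. Mcm6 has the same kind of overlapping pair at -110 and -106 and a further match at -47. Pola1 has 1 match, at -138, and Rfc3 has a match at -10 and another that begins at the start itself, outside the printed run.

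Of the 35 members, 30 had a window in the RefSeq promoter table, which reaches from 250 bases before the start to 50 after it. An E2F-type match was present in 13 of these 30 (43.3%, 95% Wilson interval 27.4 to 60.8%). Among all 27025 symbols in that table the share was 2.605%. Of other gene groups, 10 of 47 further replication genes with a window (21.3%), 7 of 19 cell cycle control genes (36.8%) and 1 of 17 mitosis genes (5.88%) held the motif. The short CHR motif TTTGAA, known from promoters of genes used in G2 and mitosis, was found in 3 of the 30 member windows (10.0%), in 12 of the 17 mitosis windows (70.6%) and in 20.2% of all. The CCAAT box was found in 17 of the 30 member windows (56.7%) and in 41.1% of all. A match is a run of letters, not a measured binding site.

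**Figure D1:**
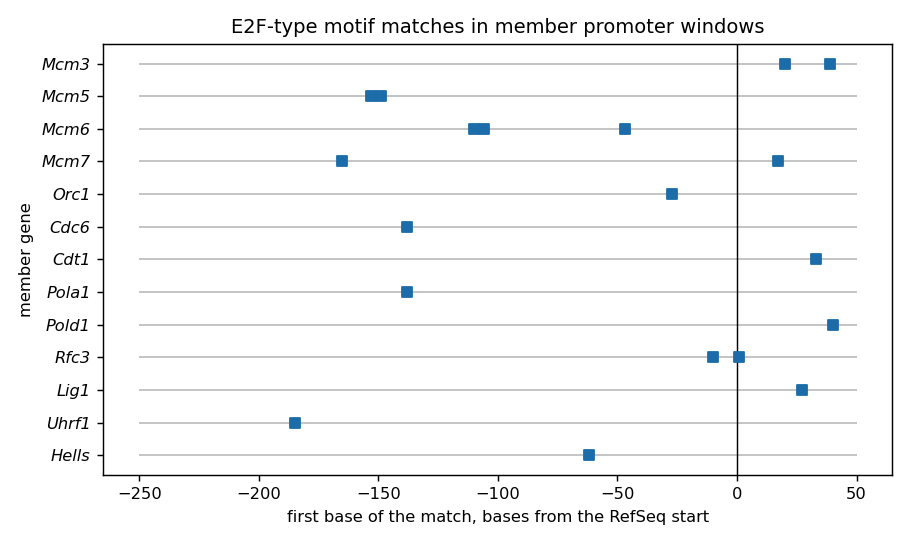
Position of the first base of each E2F-type match (blue squares, either strand) in the 300-base promoter windows (grey lines) of the 13 members that hold one, in bases from the RefSeq transcription start (vertical line at 0). Matches lie on both sides of the start, from -185 in Uhrf1 to 40 in Pold1.

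Per length, Pcna was the most abundant member in every library: the authors' deposited tables list it at 138 FPKM (fragments scaled to gene length and library size) in PBS and 143 with DKK1 in precursor cells 1, and at 78.3 and 77.8 in precursor cells 2. Its product is the ring that tethers polymerases to DNA and serves in repair as well. Mcm5 followed in precursor cells 1 with 31.2 and 30.6 FPKM. In precursor cells 2, the FPKM of Mcm6 (16.7 and 17.0) stood above that of Mcm5 (11.8 and 11.4), so the order of these subunits differed between the preparations. At the low end was Orc1, the largest subunit of the origin recognition complex, with 1.19, 1.12, 0.578 and 0.644 FPKM in PBS 1, DKK1 1, PBS 2 and DKK1 2.

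**Figure D2:**
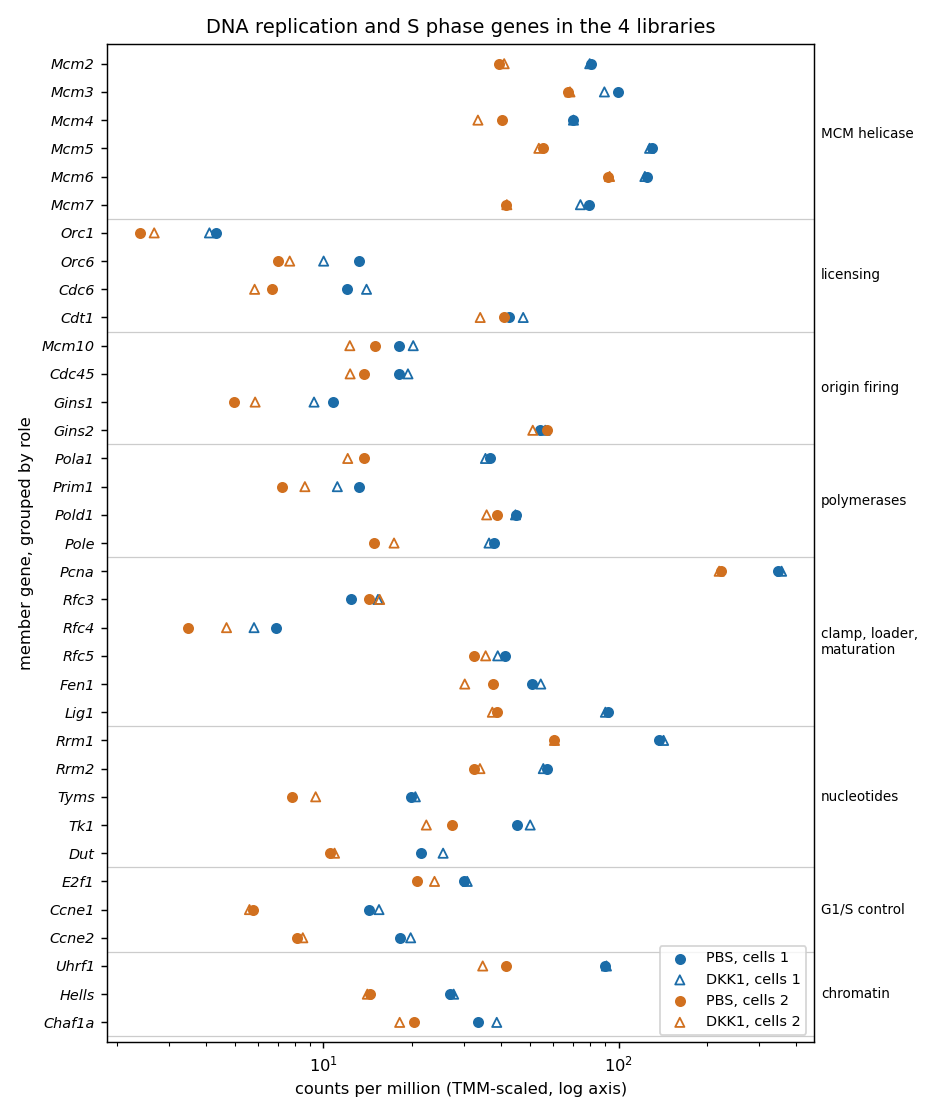
Level of each member in each library in TMM-scaled CPM on a log axis, by role. Blue points are precursor cells 1, orange points precursor cells 2, filled circles PBS and open triangles DKK1, 1 library per point. For most members the blue and orange points are apart while circle and triangle of 1 colour lie close together, with Gins2 and Rfc3 as members where the colours mix.

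The first comparison asked whether 3 h of DKK1 changed these genes. None of the 35 was called (9 of 17462 genes were), and none had an unadjusted p under 0.05, which 4.47% of all genes had. The smallest unadjusted p among the members was 0.145, and the smallest edgeR adjusted p was 0.959. Fitted log2 changes ran from -0.19 (Orc6) to 0.22 (Rfc3), and 27 members lay within 0.1 of 0. The median of -0.002 stood beside -0.001 for all genes tested.

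The intervals say how large a change these 4 libraries would still allow under the fitted model. That model leaves 1 residual degree of freedom, and the spread it uses may be technical. On simulated data 22 of 123 and 43 of 154 of its DKK1 calls were false, so the intervals may be too narrow. For 32 of the 35 members the 95% confidence interval lay inside a 1.5-fold change in either direction, and for all 35 inside 2-fold. The widest bounds were -0.65 (Orc6, 271 to 747 counts) and 0.60 (Orc1, 92 to 245 counts) on the log2 scale. Pcna, the most deeply counted member, had the narrowest interval, -0.11 to 0.14. A p above the threshold does not show that DKK1 left these genes as they were.

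Among the MCM helicase genes, Mcm6 stood at 124.9 CPM in PBS and 122.8 with DKK1 in precursor cells 1, and at 91.8 and 93.2 in precursor cells 2 (log2 -0.002, 95% CI -0.16 to 0.16). Mcm5 had 130.2 and 127.4 CPM, and 55.4 and 53.7 (log2 -0.04, 95% CI -0.20 to 0.13). For both genes the treatments within a preparation lay closer together than the preparations did. Mcm4 had the lowest fitted change of the 6 subunits, log2 -0.12 (95% CI -0.36 to 0.12), with within-pair differences of 0.01 (precursor cells 1) and -0.27 (precursor cells 2).

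Rfc3, a small subunit of the clamp loader that opens the Pcna ring, had 12.4 CPM in PBS and 15.3 with DKK1 in precursor cells 1, then 14.2 and 15.5 in the second preparation. It was the 1 member whose DKK1 libraries both lay above both PBS libraries, and groups did not overlap in this sense, in either direction, for 16.2% of all genes. Its fitted log2 change of 0.22 did not pass (95% CI -0.10 to 0.54; edgeR adjusted p = 0.959). The other loader subunits had log2 changes of 0.00 (Rfc4), 0.02 (Rfc5), 0.09 (Rfc1) and 0.02 (Rfc2), the last 2 from the list of further replication genes. At the other end, Orc6, a small subunit of the origin recognition complex, had 13.2 CPM in PBS and 10.01 with DKK1 in the first preparation, then 7.01 and 7.68 in the second (log2 -0.19, 95% CI -0.65 to 0.26). Its treatments overlapped, since the DKK1 value was the lower of the pair in one preparation and the higher in the other.

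Among the nucleotide genes, Dut, whose product keeps uracil out of DNA by breaking down dUTP, had 21.3 and 25.4 CPM and then 10.5 and 10.9 (log2 0.18, 95% CI -0.13 to 0.49). Tyms had 19.9 and 20.5 CPM and then 7.84 and 9.41 (log2 0.12, 95% CI -0.21 to 0.45). Both were higher with DKK1 in each pair, by less than the preparations differed, and neither passed the test.

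The role groups had median log2 changes with DKK1 of -0.04 (MCM helicase, 6 genes), -0.02 (licensing, 4), -0.04 (origin firing, 4), -0.05 (polymerases, 4), 0.01 (clamp, loader and maturation, 6), 0.03 (nucleotide synthesis, 5), 0.10 (G1/S control, 3) and 0.02 (chromatin, 3). The 3 G1/S genes all had positive values: 0.11 for E2f1, the transcription factor, 0.06 for Ccne1 and 0.10 for Ccne2, which encode cyclin E. Each interval spanned 0.

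**Figure D3:**
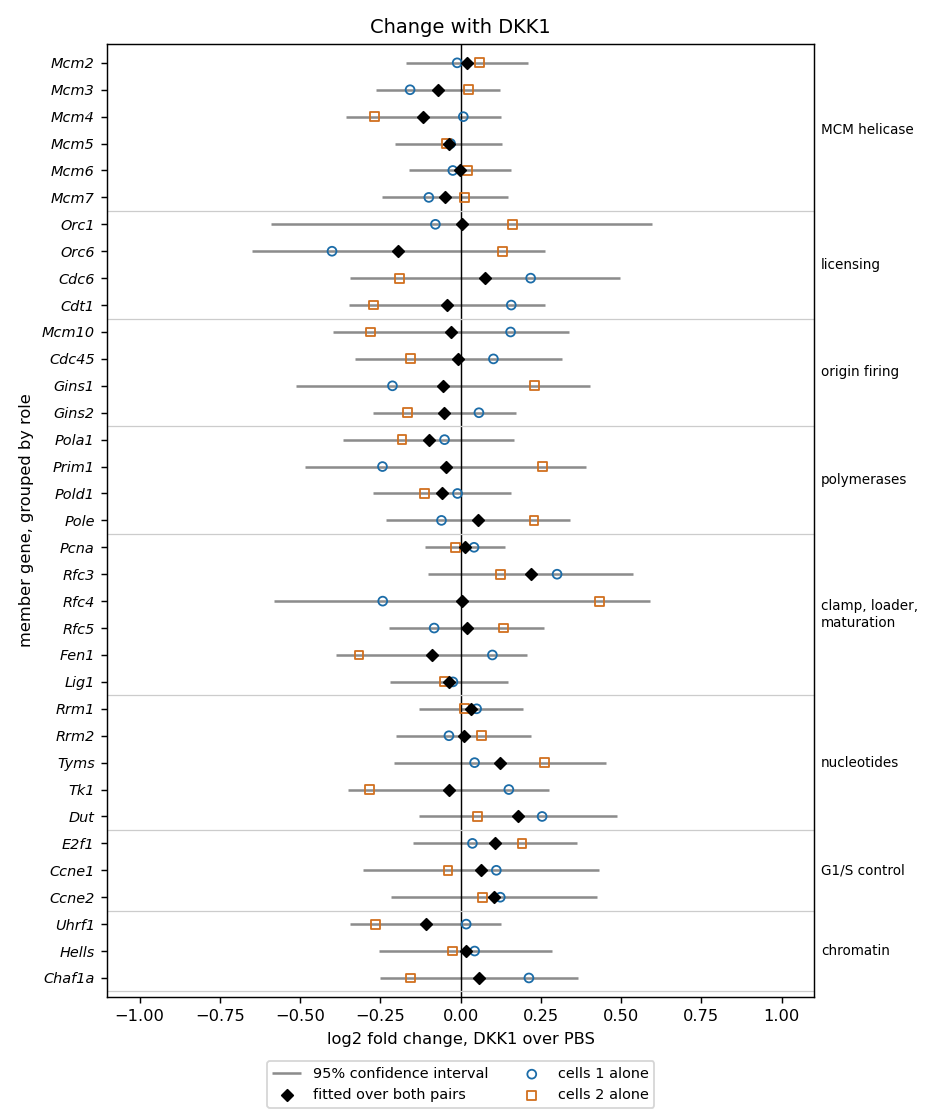
Log2 fold change with DKK1 for each member. Black diamonds are the values fitted over both pairs with 95% confidence intervals (grey bars), open circles the difference within precursor cells 1 and open squares that within precursor cells 2. All 35 bars cross 0, and circle and square often lie on opposite sides of it.

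Differences within the pairs often had opposite signs in the members. The sign was the same in both preparations for 10 of the 35 (28.6%) and for 51.7% of all genes. Another 13, among them Cdt1, Fen1, Tk1 and Mcm4, were positive in precursor cells 1 and negative in precursor cells 2. A further 12, among them Prim1, Gins1, Rfc4 and Orc6, were the reverse.

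Tk1, the thymidine kinase of the salvage pathway, shows the first form: 45.2 CPM in PBS and 50.2 with DKK1 in precursor cells 1, then 27.2 and 22.3 in the other, within-pair log2 differences of 0.15 and -0.28. Prim1, the catalytic primase subunit that makes RNA primers, shows the second, with 13.2 and 11.1 CPM and then 7.24 and 8.65, differences of -0.24 and 0.25. In neither gene did the treatments separate over the 4 libraries.

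Across the 35 members the within-pair differences correlated at Pearson r -0.519 (Spearman rho -0.532), against 0.112 over 59 other replication genes, -0.132 over 20 mitosis genes and -0.006 over all genes tested. These are descriptions across genes that share 4 libraries, and genes are not independent replicates. GC content of the gene models correlated with the members' difference at r 0.129 in the first preparation and -0.317 in the second, and at -0.016 and -0.041 for all genes. Its part in the sign pattern was not tested. The median within-pair difference of the members was 0.02 in the first preparation and 0.01 in the second.

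The authors' deposited tables compare 1 DKK1 library with 1 PBS library in each preparation, with no replicate behind their FDR. In precursor cells 1, the authors' deposited table has 4 members with an FDR under 0.05 (19% of the genes it lists): Orc6 (log2 ratio -0.39), Rfc3 (0.30), Dut (0.26) and Chaf1a (0.22). In precursor cells 2, the authors' deposited table has 5 such members (16.7% of its genes), all lower with DKK1: Mcm4 (-0.26), Cdt1 (-0.26), Fen1 (-0.31), Tk1 (-0.27) and Uhrf1 (-0.26). No gene was on both lists, and none of the members (0 of 35) in the authors' deposited tables also reached an absolute log2 ratio of 1, which 0.921% and 0.987% of the genes did.

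The second comparison asked how the members differed between the preparations, from the same model. No preparation was replicated, so the test compares precursor cells 2 with precursor cells 1 and not 2 kinds of mice, and its p-values rest on how far the differences vary between the PBS and the DKK1 libraries. Beside the 27 members that were lower in precursor cells 2, 8 did not pass the test. Of the 27, 18 were called lower in every alternative fit, and Mcm3, Orc6, Cdc6, Cdc45, Gins1, Prim1, Fen1, E2f1 and Chaf1a lost the call in at least 1. In 33 members both libraries of precursor cells 2 lay below both of precursor cells 1, as in 35.3% of all genes. The median of -0.877 stood beside -0.003 for all genes tested, and was -0.855 in the PBS libraries alone and -0.828 in the DKK1 libraries alone.

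**Figure D4:**
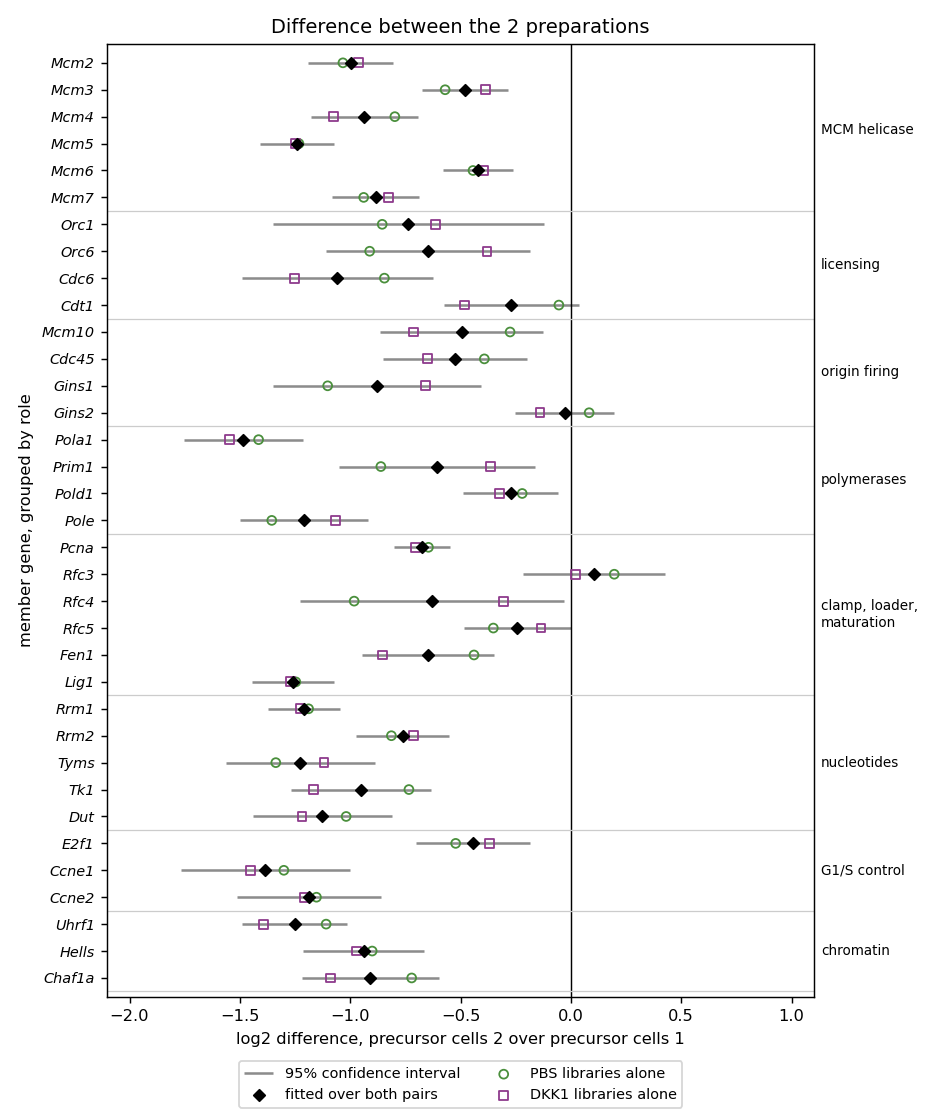
Log2 difference of precursor cells 2 over precursor cells 1 for each member. Black diamonds are fitted values with 95% confidence intervals (grey bars), open circles the PBS libraries alone and open squares the DKK1 libraries alone. Of the 35 diamonds 34 lie left of 0, from -1.48 for Pola1 to 0.10 for Rfc3.

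All 6 subunits of the MCM helicase were lower in precursor cells 2, but by unequal amounts. The levels of Mcm5 given above show no overlap, and it differed by log2 -1.24 (95% CI -1.41 to -1.07; edgeR adjusted p = 9.93e-05), which is 2.36-fold. Mcm2, with 80.5 and 79.9 CPM for the first preparation against 39.3 and 40.96 for the second, differed by log2 -0.998 (95% CI -1.19 to -0.81). Mcm4, at 69.9 and 70.3 CPM and then 40.2 and 33.4, differed by -0.94, and Mcm7 by -0.88. Mcm3, at 99.9 and 89.5 CPM and then 67.3 and 68.4, differed by -0.48 (95% CI -0.67 to -0.28; edgeR adjusted p = 0.0066), and Mcm6 by -0.42 (95% CI -0.58 to -0.26; edgeR adjusted p = 0.00502). The intervals of Mcm3 and Mcm6 do not overlap those of the other 4 subunits, though the differences between genes were not tested.

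Of the 4 licensing genes, Orc6 (-0.65, in a locus whose counts lie mostly in the overlapping Vps35) and Cdc6 (-1.06) were lower in precursor cells 2. Cdc6, the loader that recruits the MCM ring, had 12.02 and 13.99 CPM in precursor cells 1 against 6.67 and 5.84, with no overlap. Orc1 (log2 -0.74, edgeR adjusted p = 0.0699) and Cdt1 (-0.27, edgeR adjusted p = 0.151) did not pass. Cdt1 had 42.6 and 47.5 CPM against 41 and 33.97, so its PBS libraries were nearly level.

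Of the 4 origin firing genes, Cdc45 and Gins1, both parts of the running helicase, were lower. Cdc45 had 18.01 and 19.3 CPM and then 13.7 and 12.3 (log2 -0.52, 95% CI -0.85 to -0.20; edgeR adjusted p = 0.0291). Gins1 had 10.8 and 9.29 CPM and then 4.99 and 5.87 (log2 -0.88, 95% CI -1.35 to -0.41; edgeR adjusted p = 0.0177). Mcm10, a scaffold of the starting helicase, missed the threshold (log2 -0.50, edgeR adjusted p = 0.0512). Gins2 had 54.2, 56.4, 57.4 and 51.2 CPM in PBS 1, DKK1 1, PBS 2 and DKK1 2, with overlapping preparations (log2 -0.03, 95% CI -0.25 to 0.19). It thus differed in value from Gins1, its partner in the same complex, but 67.3% of the Gins2 exon bases also lie in exons of Gse1.

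Pola1, the catalytic subunit of the polymerase that extends primers, had 36.6 CPM in PBS and 35.4 with DKK1 in precursor cells 1, against 13.7 and 12.1 in precursor cells 2. This was the largest difference among the members, log2 -1.48 (95% CI -1.76 to -1.21; edgeR adjusted p = 0.000323) or 2.80-fold, and lay in the same range in PBS (-1.42) and DKK1 (-1.55) libraries. Pole, the catalytic subunit of the leading strand polymerase, had 37.9 and 36.4 CPM and then 14.8 and 17.3, a difference of -1.21 (95% CI -1.50 to -0.92), and Prim1 differed by -0.61 (95% CI -1.05 to -0.16). Pold1, the catalytic subunit for the lagging strand, had 45.0 and 44.7 CPM and then 38.6 and 35.7, a difference of -0.27 that did not pass (edgeR adjusted p = 0.0598). The intervals of Pola1 and Pold1 do not overlap.

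The clamp gene Pcna had 346.7 and 356.9 CPM in precursor cells 1, against 221.6 and 219.3, log2 -0.67 (95% CI -0.80 to -0.55; edgeR adjusted p = 0.00036). Lig1, the ligase that joins Okazaki fragments, had 91.8 and 90.2 CPM and then 38.6 and 37.4, a difference of -1.26 (95% CI -1.45 to -1.07; edgeR adjusted p = 0.000144), and Fen1, the nuclease that trims them, differed by -0.65. In all 3 of these genes both libraries of precursor cells 2 were the lower ones. None of the 3 clamp loader genes among the members passed: Rfc3 had log2 0.10 (95% CI -0.22 to 0.42), Rfc4 -0.63 (95% CI -1.23 to -0.03) and Rfc5 -0.24 (95% CI -0.49 to 0.00). Rfc4, with 134 to 389 counts, had the second widest interval among the members.

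All 5 nucleotide synthesis genes were lower in precursor cells 2. Rrm1, the large subunit of ribonucleotide reductase, had 137.2 and 142.1 CPM and then 60.2 and 60.7, log2 -1.21 (95% CI -1.37 to -1.04; edgeR adjusted p = 0.000102). Rrm2, its small subunit, had 57.0 and 55.6 and then 32.4 and 33.9, log2 -0.76 (95% CI -0.97 to -0.55). Tyms, which makes thymidylate, differed by -1.23, Dut, which removes dUTP, by -1.13 and Tk1 by -0.95. The preparations overlapped in none of the 5.

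All 3 G1/S genes were lower in precursor cells 2. Ccne1 had 14.3 and 15.4 CPM in precursor cells 1, against 5.77 and 5.61, log2 -1.38 (SE 0.154; edgeR adjusted p = 0.00159), and Ccne2 differed by -1.19. E2f1 differed less, from 29.9 and 30.7 CPM to 20.8 and 23.8, by log2 -0.44 (95% CI -0.70 to -0.19; edgeR adjusted p = 0.0228). Its interval overlaps neither that of Ccne1 nor that of Ccne2.

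The chromatin genes were Uhrf1, which carries DNA methylation through replication, Hells, a chromatin remodeller, and Chaf1a, the large subunit of the histone chaperone CAF-1. Uhrf1 had 89.9 and 91.0 CPM and then 41.7 and 34.6, log2 -1.25 (95% CI -1.49 to -1.01; edgeR adjusted p = 0.00038). Hells, at 26.8 and 27.6 CPM and then 14.3 and 14.1, differed by -0.94. Chaf1a, at 33.3 and 38.7 CPM and then 20.2 and 18.1, differed by -0.91. All 3 passed, with no overlap between the preparations.

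The difference between the preparations is given next by promoter motif. Of the 13 with a match, 9 were lower in precursor cells 2, with a median log2 difference of -0.88 and a range from -1.48 to 0.10. Of the 17 with a window and no match, 14 were lower, with a median of -0.67 and a range from -1.38 to -0.24. Both ends of the member range, Pola1 and Rfc3, hold the motif, as printed above, and the difference between the groups of windows was not tested.

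The further 59 replication genes, from the other MCM loaders, polymerase subunits, fork and repair factors, nucleotide enzymes and histone chaperones, were described the same way: 30 were lower in precursor cells 2, 4 were higher and 25 did not pass, with a median of -0.40. The licensing and firing genes among them had 4 lower of 17 (median -0.13), the polymerase and fork genes 11 of 19 (-0.49), the nucleotide enzymes 7 of 12 (-0.67) and the chromatin genes 8 of 11 (-0.64). Over all genes tested, 15.9% were lower and 17.9% higher. The 4 higher genes of this list were Samhd1, Dck, Timeless and Pold3. Samhd1, which breaks down deoxynucleotides and is induced by interferon in many cells, had 320.8 and 350.8 CPM and then 1114 and 1102 (log2 1.72, 95% CI 1.60 to 1.85; edgeR adjusted p = 1.1e-05). Dck, a salvage kinase for deoxycytidine, differed by 1.29 (edgeR adjusted p = 5.08e-05).

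Timeless (1.16) and Pold3 (0.48) were named after their values were seen. Enzymes of deoxynucleotide supply therefore lay on both sides of 0, with Tyms and Rrm1 lower and Dck higher in precursor cells 2.

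Of 20 mitosis genes, 18 were lower in precursor cells 2 (15.9% of all genes were) and 0 higher (17.9%). Their median was -0.82, close to that of the members. Mki67, the gene of the Ki-67 antigen of dividing cells, had 300.6 and 335.6 CPM and then 178.0 and 183.0 (log2 -0.82, 95% CI -0.96 to -0.67; edgeR adjusted p = 0.00027). Ccnb1, which encodes cyclin B1, differed by -1.51 (edgeR adjusted p = 0.000258). Of 26 genes of cell cycle control, 12 were lower and 3 higher, beside the same shares of all genes, with a median of -0.34. The higher ones were Cdkn1a, the inhibitor p21 (log2 1.32, edgeR adjusted p = 4.12e-05), Ccnd2, which encodes cyclin D2 (1.26, edgeR adjusted p = 0.000249), and the pocket protein gene Rbl2 (0.51), the last named after its values were seen.

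With DKK1, 0 genes of these 3 lists passed the edgeR test (0.0515% of all genes did). An unadjusted p under 0.05 was found for 1 of 59, 0 of 20 and 2 of 26, and for 4.47% of all genes. The medians were 0.02 for the other replication genes, 0.10 for mitosis and -0.03 for cell cycle control. Ccnd3, which encodes cyclin D3, had the smallest p: 82.0 CPM in PBS and 57.5 with DKK1 in precursor cells 1, then 85.9 and 49.6 in the second preparation, log2 -0.65 (95% CI -0.88 to -0.42; edgeR adjusted p = 0.276). DESeq2 gave an adjusted p of 0.00204 for it, and over its other alternatives the adjusted p ranged from 0.138 to 1. Of the Ccnd3 exon bases 4.11% also lie in exons of Bysl. Ccnd3 held 61.5% of the joint counts with its overlapping and near-identical models. The treatments did not overlap for Ccnd3, as in 16.2% of all genes, and its difference between the preparations was log2 -0.07 (edgeR adjusted p = 0.622). Cdk2, the kinase partner of cyclin E, had 24.7 and 33.1 CPM and then 29.4 and 38.7 (log2 0.41, 95% CI 0.18 to 0.64; edgeR adjusted p = 0.794). Cdc7, the kinase that fires licensed origins, had 8.59 and 13.0 and then 5.85 and 7.29 (log2 0.50, 95% CI 0.09 to 0.90; edgeR adjusted p = 0.959). Rpa1 (0.20), Nusap1 (0.26) and Birc5 (0.24) had intervals that spanned 0. All of these genes were named for having the smallest p of their lists, and their intervals are not adjusted for that choice.

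**Figure D5:**
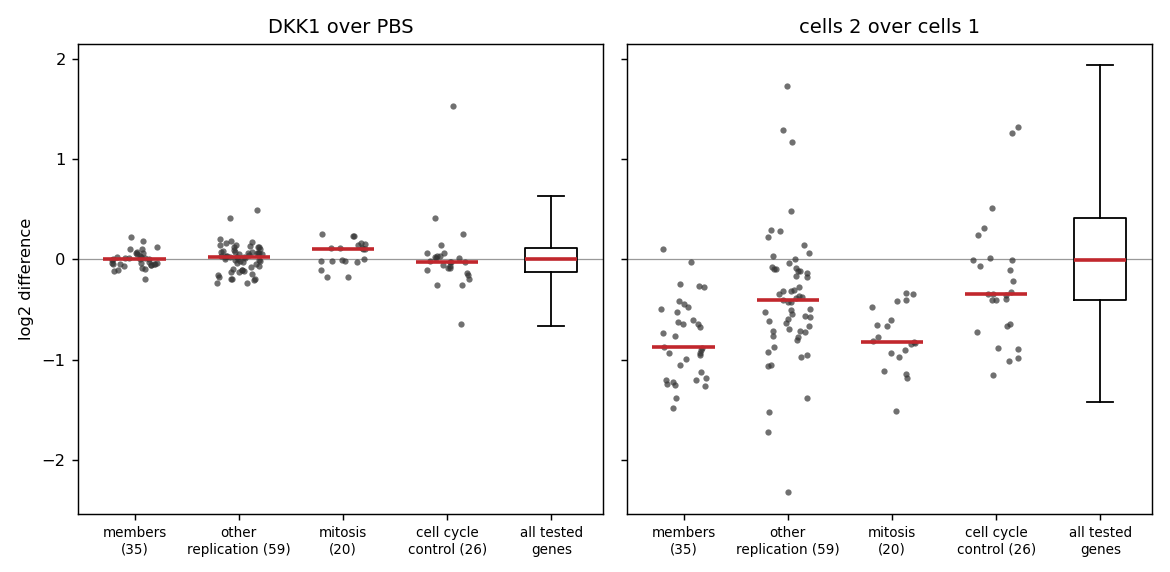
Log2 difference for DKK1 over PBS (left) and precursor cells 2 over precursor cells 1 (right) in the members and 3 other lists, 1 point per gene (spread sideways for sight), with the median in red. The box at the right of each panel shows all tested genes (quartiles, whiskers from the 5th to the 95th percentile). On the left every list median lies between -0.03 and 0.10, and on the right the members (-0.88) and mitosis genes (-0.82) lie lowest.

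Other groups of genes moved between the preparations alongside the members, and their part in the difference was not tested. Of 12 B lineage markers 11 were lower in precursor cells 2 (15.9% of all genes were). Their summed levels were 417 and 284 CPM against 165 and 151, with a median log2 difference of -2.97. All 11 neutrophil and granulocyte precursor markers were higher (17.9% of all genes were), with sums of 5026 and 4991 and then 9284 and 9497 CPM. All 10 interferon genes were higher, from 1341 and 1508 to 9815 and 9817 CPM, and all 9 mitochondrially encoded genes lower (median -0.86).

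Of 12 monocyte and macrophage markers 7 were higher and 3 lower, where 17.9% of all genes were higher and 15.9% lower. Of 9 tested osteoclast markers 3 were higher (Acp5, Ctsk and Nfatc1) and 3 lower (Mmp9, Itgb3 and Dcstamp), with log2 differences from -2.04 for Dcstamp to 2.27 for Ctsk. The erythroid list had 5 higher and 1 lower of 8 tested (sums of 228 to 318 CPM over the 4 libraries). The largest part of each sum was Tfrc, the 1 lower gene, with 209.4 and 205.7 CPM and then 91.4 and 98.5. Stem and progenitor markers summed to 98.3 to 120.2 CPM, with 2 higher and 2 lower of 7. T and NK cell markers summed to 24.1 to 39.2 CPM (1 higher and 1 lower of 7 tested) and stromal markers to 78.3 to 154.3 CPM (3 higher of 7). The summed level of the 35 members was 1934 and 1951 CPM in the first preparation, 1155 and 1121 in the second. With DKK1, the B lineage markers had a median log2 change of -0.38 and the erythroid markers of -0.41, with 0 called in both. The B lineage median was -0.49 within precursor cells 1 and 0.04 within precursor cells 2, and 5 of 12 had the same sign in both. For the erythroid markers it was -0.41 and -0.38. An unadjusted edgeR p under 0.05 was found for 6 of 12 B lineage and 4 of 8 erythroid markers (4.47% of all genes).

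Some member loci overlap exons of other genes, and the labels do not say whether the libraries keep strand, so reads there cannot be assigned with certainty. For 25 members at least 90% of the counts of their own and any overlapping or near-identical models lay in their own model, and 21 of these 25 were lower in precursor cells 2, with a median of -0.94. The other 10 were Mcm7 (beside Cops6 and Ap4m1), Orc1, Orc6 (Vps35), Cdc45 (Ufd1), Gins2 (Gse1), Rfc4 (Eif4a2), Rfc5 (Wsb2), Fen1 (Tmem258 and Gm10143), Ccne2 (Ints8) and Chaf1a (Ubxn6), of which 6 were lower. Overlap took 84.2% of the exon bases of Fen1 and 52.5% of those of Chaf1a. Pcna has a near-identical pseudogene model, Pcna-ps2, and holds 97.8% of their joint counts. Summing each member with such models moved the member median to -0.61 and left 24 members called lower, but these sums are mostly counts of the partner for 9 of the 10.

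On GRCm38, the protein-coding genes with printed promoters lie on chromosome X from 93304767 to 93632155 (Pola1, ENSMUSG00000006678), on chromosome 8 from 75109569 to 75128439 (Mcm5, ENSMUSG00000005410), on chromosome 1 from 128331590 to 128359664 (Mcm6, ENSMUSG00000026355) and on chromosome 5 from 151642756 to 151651242 (Rfc3, ENSMUSG00000033970). None of the 4 overlaps an exon of another gene.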

How the data were processed

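Counts, FPKM and the authors' comparisons came from deposited tables. The submitters' processing notes name fastp, HISAT2 and the build mm10. How reads were counted is not given in the sources used here. The deposited counts are whole numbers per gene without normalization. The authors' tables of 1 DKK1 against 1 PBS library give, per the file headers, FPKM, a log2 ratio, a p-value and an FDR, with the test not stated.

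The replicate number was taken as the mouse, since the labels name precursor cells 1 and 2 from a pair of mice. The correlation between deviations from the treatment means was 0.87 for libraries of 1 preparation, which principal component 1 (87.8%) also set apart from the other. Nothing says that the libraries of 1 preparation were separate cultures, so the spread may be technical. Of 53801 genes, 26361 had a count and 17462 passed filterByExpr (99.95% of counts). The model was edgeR 4.0.16 (R 4.3.3) quasi-likelihood with TMM scaling and terms for preparation and treatment, leaving 1 residual degree of freedom. Confidence intervals (95%) use its moderated spread. Within-pair differences are log2 CPM with a prior count of 2. Alternatives were RLE and upper-quartile scaling, other count filters, DESeq2 1.42.0, limma-voom 3.58.1, fits without the pairing or the treatment term, and each library left out. The script was tested on simulated data, first with trended and then with genewise dispersion (the spread between libraries). For DKK1, 22 of 123 and then 43 of 154 calls were false. For the preparations, 0 of 73 and then 37 of 140 were. Except for the 0, these shares lay above the adjusted p threshold used. Of simulated 1.5-fold changes, 26.9% and 34.3% were recovered for DKK1, and 7.46% and 26.9% for the preparations. For 2-fold changes these were 47.8% and 56.7%, and 40.3% and 49.3%. For 4-fold changes these were 77.3% and 75.8%, and 62.1% and 78.8%.

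Exon overlap came from GENCODE M21, and near-identical models from BLAST 2.17.0 (identity from 95%, length from 100 bases, cover from 50%). Promoters came from RefSeq (GRCm38.p6), matched by symbol for 30 of the 35 members. Mcm4, Gins1, Gins2, Pole and Ccne2 had no window. For genes with several windows any match counted. The text names all members, the 2 genes of each further cell cycle list with the smallest p per comparison and the most abundant gene of marker lists where given, and markers at 0 counts in every library. Partner genes, Rfc1, Rfc2, Timeless, Pold3, Rbl2, Acp5, Ctsk, Nfatc1, Itgb3, Dcstamp, Ocstamp, Oscar, Atp6v0d2 and Tnfrsf11a were named after their values were seen. The members and lists were chosen with earlier results of these data known. The GC values, DKK1 fits with summed models and the restriction to members with at least 90% own counts were chosen after seeing the data.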

Additional observations from a re-analysis of the deposited data

How the results depend on the processing

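With DKK1, 0 members were called in any fit, including those with a library left out. Over all genes, calls higher and lower with DKK1 (7 and 2) became 4 and 1 with upper-quartile scaling, 11 and 4 with a stricter count filter, 28 and 18 with DESeq2, 2 and 0 with limma-voom, and 0 and 0 without a count filter (911 unadjusted p under 0.05). Without the pairing (no replicate block) they were 0 and 0 (115 unadjusted), and also 0 and 0 with any library left out, where the member median ran from -0.534 to 0.487 (-0.352 without PBS 2, 0.319 without DKK1 2) because the preparations were then unequal between treatments. The member median with DKK1 was 0.00328 without a filter, 0.00705 with DESeq2 and 0.00929 with summed models, against a within-pair median of 0.0175 in precursor cells 1 alone and 0.011 in precursor cells 2 alone.

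Between preparations, members called lower (27) numbered 21 to 30 over the other fits and 20 to 25 with a library left out, and 0 were higher in all of these. Their median was -0.928 with upper-quartile scaling, -0.904 without a filter, -0.606 with summed models, -0.938 for members with at least 90% own counts and -0.846 to -0.772 with a library left out (-0.807 without PBS 2, -0.834 without DKK1 2). Over all genes, 2780 were lower in the main fit and 1606 to 3143 in the other fits. There were 3143 with upper-quartile scaling (29 members), 2914 without the treatment term (30 members) and 2039 with DESeq2 (23 members). Without a filter 1901 genes were higher and 1606 lower. With a library left out these ran from 1824 to 2511 and from 1370 to 2088, where PBS 2 (1904 and 1442) and DKK1 2 (1824 and 1370) moved them by over 1.5 times. Of 8 other fits and 4 with a library left out, Orc6 was called lower in 4 and 1, Cdc45 and Prim1 each in 5 and 1, E2f1 in 6 and 1, Gins1 in 7 and 2, Fen1 in 7 and 3, Chaf1a in 7 and 4, Mcm3 in 8 and 2, and Cdc6 in 8 and 3. Mcm3 lost it without PBS 2 and without DKK1 2, and Cdc6 without DKK1 2. Orc1, Mcm10 and Pold1 gained it in some fits. In the last 150 bases of the windows, 9 of 30 members (30.0%), 0 of 17 mitosis genes and 1.45% of all promoters held the E2F-type motif.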
